A study of Mus musculus with 4 samples.

Results

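CD8 T cells with the surface phenotype of effector memory cells were compared with CD8 T cells of naive phenotype across all genes of a microarray. The comparison sets array P3, hybridised with CD44high CD62Llow cells, against array P1, hybridised with CD44low CD62Lhigh cells, and so uses 2 of the 4 arrays of the series. All 4 subsets were sorted by flow cytometry from spleens and lymph nodes, and the donors were untreated mice of strain C57BL/6, 1 to 3 months of age. Every subset, the naive phenotype control included, came from PD-1-/- mice, which lack the inhibitory receptor PD-1 that normally restrains T cells. The other 2 arrays hold CD44high CD62Lhigh cells (P2, the surface phenotype of central memory cells) and CD44low CD62Llow cells (P4), and their levels are given beside those of P1 and P3. Of 22911 genes that the array names through a RefSeq accession, 14101 were well above background on P1 or P3 and form the compared set.

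CD44 is an adhesion receptor for hyaluronan that T cells keep at high levels after they have met antigen. Naive CD8 T cells recirculate through lymph nodes in a resting state, whereas effector memory cells carry preformed cytotoxic machinery, make cytokines quickly and bear receptors for inflamed tissue. In untreated mice, memory-phenotype cells arise without deliberate immunisation, from homeostatic signals or environmental antigens.

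Each subset was measured on 1 array, so no p-value or spread between mice can be given, and genes were called by size alone. The labels do not say how many mice contributed to an array. All 4 arrays lay on 1 slide, so that subset and position on the slide cannot be told apart. Where 4 levels of a gene follow each other without array names, they are in the order P1, P2, P3 and P4. A level is the log2 processed Cy3 signal minus the 75th percentile of that array, and a difference is the P3 level minus the P1 level. The 75th percentile itself was 481 signal units on P1 and 799 on P3, a gap of 0.73 on the log2 scale that the scaling removed, and without scaling every difference would be larger by that amount. Where a gene was well above background on only 1 of the arrays, the value on the other was set no lower than the dimmest probe that passed there. The difference is then called a bound and written as "at least". A value that did not pass but lay above that dimmest probe was kept as read. In such genes, among them Wnt5b, Amigo2, Dmbt1, Pag1, Il2ra and Itgax, "at least" marks a plain difference from a value near background. Probes spotted repeatedly had a pooled SD of 0.073 over 573 probe and array pairs, which gives a 95% interval of ±0.20 for a difference. At levels below -3 that interval widened to ±0.63. It covers spot noise only, and leaves out any spread between mice, sorts or hybridisations.

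Cd44 followed the gates. It stood at -1.80 in P1 and 2.11 in P3, a difference of 3.91 or 15.1-fold, and P2 at 2.26 and P4 at -1.24 fell on the sides their labels give. The T cell identity of both arrays was shown by the CD3 chains, whose levels differed by -0.52 for Cd3d, -0.30 for Cd3g and -0.29 for Cd3e, with P1 levels from 6.13 to 7.33. Cd8b1, the beta chain of the CD8 coreceptor, was 7.92 in P1 and 7.41 in P3. Cd8a differed by 0.04, and its probes disagreed in sign. Cd4, the coreceptor of helper cells, was -0.40 in P1 and 0.22 in P3. Among the remaining lineage genes, Lck, the kinase bound to CD8, differed by -0.41, Cd247 by -0.33, Cd2 by -0.27, Ptprc by -0.26, Cd6 by -0.26 and Cd5 by 0.41. The median of these 14 sort and lineage genes was -0.28, and turned to 0.36 with quantile normalization and to 0.27 in the authors' processed values.

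Pdcd1, the gene disrupted in these mice, gave signal nevertheless. Its level was -3.30 (P1), -3.06 (P2), 1.76 (P3) and 1.70 (P4), a difference of 5.06 or 33.4-fold between P3 and P1. The position of its probe relative to the deleted part of the gene was not compared, so this signal neither checks the genotype nor shows PD-1 protein. Both CD62Llow arrays lay well above both CD62Lhigh arrays.

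The P3 array also carried transcripts of antigen-presenting and other non-T cells, and this bears on all that follows. Class II genes, which present antigen to helper T cells and are not normally made by mouse T cells, were the clearest. H2-Ab1 was -0.60, 1.09, 6.44 and 1.33 on arrays P1 to P4, and H2-Eb1 was -1.17, 0.94, 5.80 and 1.21 in the same order. Cd74, the invariant chain, was 6.07 higher, and Ciita, the transactivator of class II genes, 5.24 higher. Of the class II and conventional dendritic cell type 2 list, 10 of 12 genes above background passed 2-fold toward P3 and 0 toward P1, with a median of 5.14, against 12.5% of all measured genes higher, 7.13% lower and a median of -0.11. The summed signal of that list, in multiples of each array's 75th percentile, was 231 in P3 against 11.4 in P1, 12.4 in P2 and 14.9 in P4. Type 1 dendritic cell genes went the same way, with 11 of 14 higher and 1 lower. All measured genes of both lists were above background in P3, but in P1 only 7 of the 12 and 6 of the 14. The rest entered the counts through P3. Over genes above background on both arrays, the medians were 5.24 for the class II list and 2.75 for the type 1 list. Clec9a, a receptor for dead cells on those dendritic cells, was at least 37.2-fold higher, Flt3 at least 81.1-fold and Batf3 at least 43.9-fold. Xcr1, their chemokine receptor, was above background in P3 only, at -3.79.

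Most phagocyte and B cell genes were higher on P3 as well. In the macrophage and monocyte list, 14 of 18 measured genes were higher, with a median of 2.14 that was 0.85 after normexp background correction. All 18 were above background in P3 but only 5 in P1, so the others entered the count through P3. Over genes above background on both arrays the median was 1.11. The list summed to 131 in P3 and 99.1 in P1, with 45.3 in P4 and the highest sum, 236, in P2. Most of it was Ly6c2, which memory CD8 T cells also make, at signals of 96.5, 232, 98.8 and 42.2 for P1 to P4. Without Ly6c2 the sums were 2.66, 4.12, 32.5 and 3.13 in that order. Mpeg1, a pore-forming protein of phagocytes, was at least 411-fold higher and Aif1 at least 132-fold, while Fcgr1 and Cd163 were not well above background on either array. The other probe of Mpeg1 gave a log2 difference of 2.44. The B cell list had 7 of 12 higher, among them Blnk at least 62.5-fold and Ms4a1 at least 20.5-fold. Of these 12, all were above background in P3 but only 4 in P1, so the others entered the count through P3. The list median of 2.08 was 0.38 over genes above background on both arrays. Pax5 and Blk of that list were not well above background on P1 or P3. Its summed signal was 5.90 in P1 and 13.8 in P3. In the plasma cell list 6 of 9 were higher, led by Jchain at least 52.5-fold, and the median of 2.89 was 1.23 over genes above background on both arrays.

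Erythroid signal was also present on P3. The near-identical globin genes Hba-a1 and Hba-a2, which a probe may not tell apart, were 5.07 and 5.14 higher, and the Hba-a1 spot lay in a locally bright area of an array. The erythroid list summed to 1.03 in P1 and 14.3 in P3. By contrast, the neutrophil list had 2 of 8 higher, S100a8 and S100a9, and no gene of the platelet list reached 2-fold. The neutrophil list summed to 137 in P1 and 103 in P3, and most of it was Csf3r, at 137 and 102. Without Csf3r the sums were 0.74 in P1 and 1.57 in P3.

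Lists shared with innate lymphocytes were raised too. The natural killer cell list had 9 of 11 genes higher with a median of 5.07, yet Ncr1, Sh2d1b1 and Khdc1a, of which Ncr1 encodes the defining receptor NKp46, were not well above background on either array. That list summed to 152 in P3 and 139 in P4, against 44.1 in P2 and 6.25 in P1, but most of the sum in P3 and P4 was Gzma, a granzyme that cytotoxic T cells also make, at 111 and 121. Without Gzma the sums were 40.9 in P3, 41.4 in P2, 18.1 in P4 and 5.64 in P1. In the CD4 and regulatory T cell list 9 of 14 were higher, Foxp3 going from -3.50 to -1.57, and Gpr83 was 2.36 lower. The plasmacytoid list had 6 higher and 3 lower of 11, and its gene Siglech, at -1.25, had probes that disagreed in sign. Innate lymphoid genes counted 6 higher of 13, gamma delta genes 4 of 7, mast cell genes 1 of 3 and stromal genes 3 higher and 1 lower of 7. Over all measured genes 12.5% were higher and 7.13% lower. Every measured gene of these 4 lists was above background in P3, but in P1 only 6, 3, 3 and 2 in that order. The higher stromal genes, Kdr, Cdh5 and Ccl19, rest on bounds. Of the 11 natural killer cell genes, 5 were above background in P1. The part of cells of all these types in the differences below was not tested. In sorted bulk RNA, a change in the share of a cell type cannot be told apart from a change in RNA per cell.

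**Figure D1:**
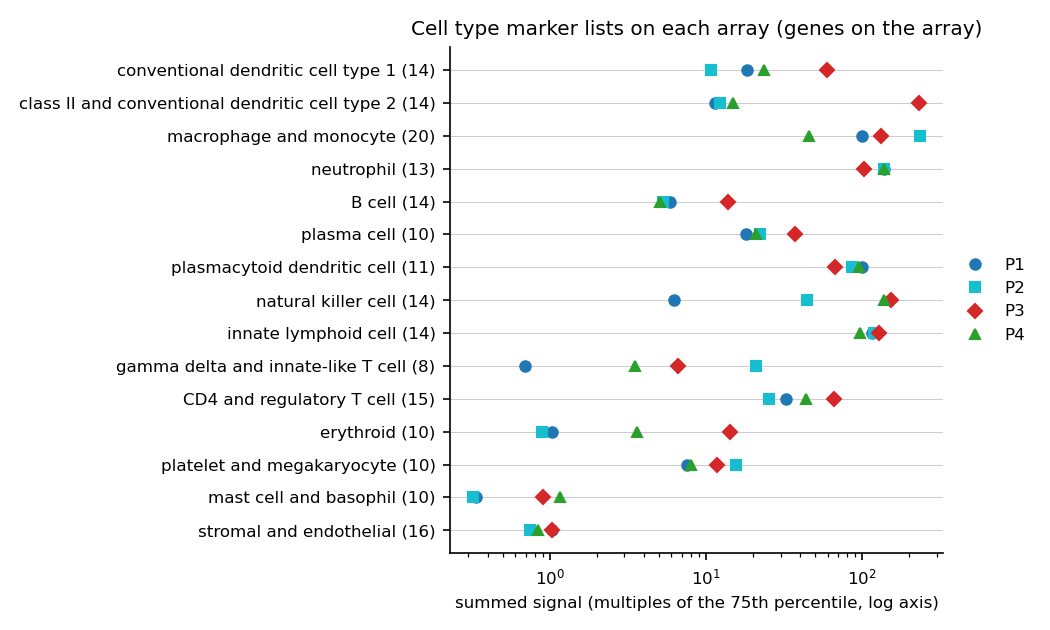
Summed signal of each cell type marker list on the 4 arrays (1 array per subset, in multiples of the array's 75th percentile, log axis; the number of list genes on the array is in brackets). For class II and type 2 dendritic cell genes P3 stands alone at 231 against 11.4 to 14.9 on the other arrays, while for natural killer cell genes P3 at 152 and P4 at 139 lie together through Gzma, without which P3 is at 40.9, P2 at 41.4 and P4 at 18.1.

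Across all measured genes, differences toward P3 were both more frequent and larger. Of the 14101 genes, 1757 were at least 2-fold higher in P3, or 12.5%, and 1006 at least 2-fold lower, or 7.13%, so that 19.6% lay at least 2-fold apart. Among the higher genes 962 were above background on both arrays and 795 rest on bounds. Among the lower genes these numbers were 774 and 232. At least 8-fold, 527 genes were higher and 56 lower, and at least 32-fold, 129 were higher and 1 lower. The middle of the distribution ran from -0.46 at the 25th percentile to 0.30 at the 75th. Near the 2-fold line, 107 genes had a difference between 1 and 1.1 and 131 between 0.9 and 1. On the lower side, 191 lay between -1.1 and -1 and 240 between -1 and -0.9.

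**Figure D2:**
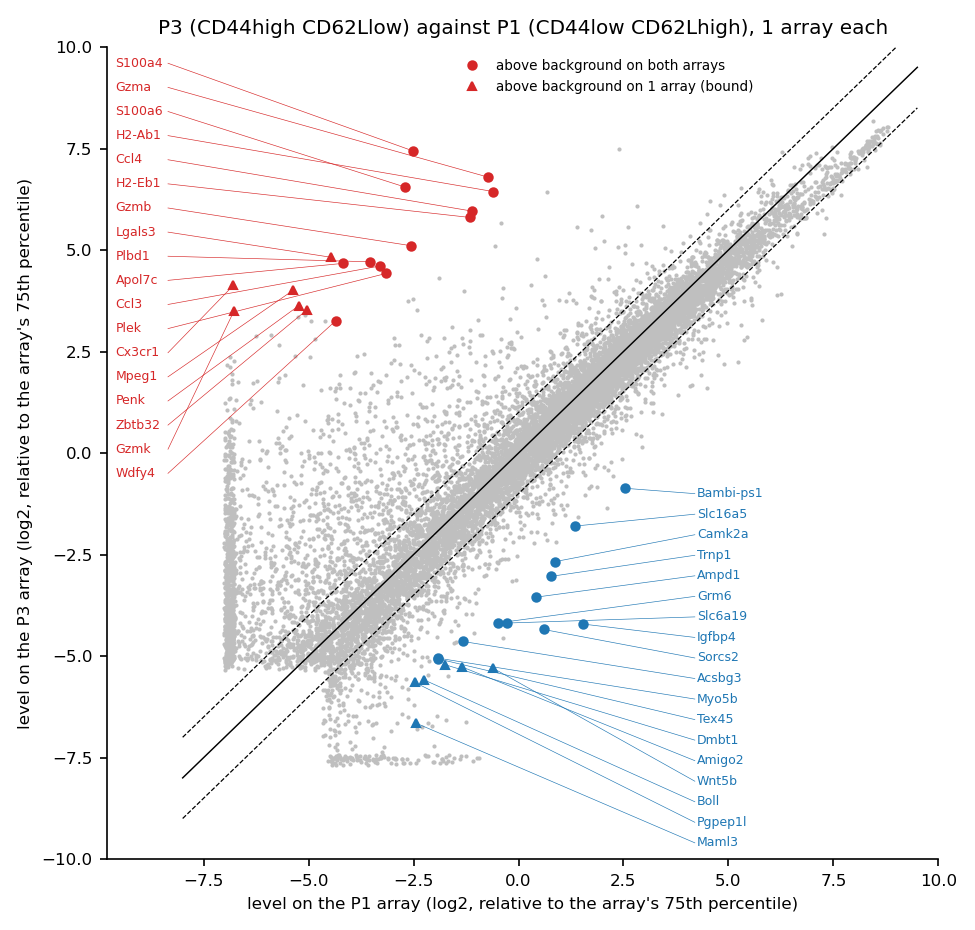
Level of each measured gene on the P1 array (x) and the P3 array (y), both log2 relative to the array's 75th percentile, with 1 array per subset. The solid line marks equality and dashed lines 2-fold, colours mark genes with the largest differences, and triangles mark those above background on only 1 array. Red genes such as S100a4 (-2.51 in P1 and 7.44 in P3) rise far above the band, while blue genes such as Igfbp4 (1.53 and -4.21) fall below it.

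Among the largest higher genes, some were also high in P4, some were high in P3 alone and some had other patterns. Ccl3, a chemokine of activated T cells, was 4.61 in P3 and -3.29 in P1, with 1.20 in P2 and 4.36 in P4. Gzmb, which encodes granzyme B, was -2.57, -0.64, 5.11 and 4.09. Gzma was -0.73, 1.42, 6.80 and 6.91. In each of these the 2 CD62Llow arrays were close to each other and above the CD62Lhigh arrays. Apol7c and Wdfy4, both known from dendritic cells, showed another order, with P4 levels of -2.82 and -2.62 against 4.67 and 3.26 in P3. Plbd1, a phospholipase B domain protein, was 4.71 in P3 and at most -0.83 elsewhere. Plek, the pleckstrin of blood cells, formed another pattern, at 4.0 in P2, 4.42 in P3, 2.16 in P4 and -3.16 in P1. S100a4 was -2.51 (P1), 2.48 (P2), 7.44 (P3) and 4.25 (P4), and S100a6 was -2.71, 3.43, 6.55 and 4.13. For both S100 genes, P2 and P4 lay between P1 and P3. Zbtb32, a zinc finger repressor of lymphocytes, was at least 293-fold higher, with 0.14 in P2 and 0.13 in P4. Penk, the precursor of enkephalin peptides, was at least 315-fold higher, and stood at 3.63 in P3 and 2.46 in P4.

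The largest lower genes were mostly less far apart. Slc6a19, a transporter of neutral amino acids, was -0.28 (P1), -3.17 (P2), -4.19 (P3) and -0.85 (P4). Grm6, a glutamate receptor, was -0.49, -3.17, -4.18 and -0.48, so that in both genes the CD44high arrays were low. Trnp1 was 0.76 in P1 and -3.04 in P3, and Sorcs2, a sorting receptor, 0.60 and -4.34. Camk2a, a calcium-dependent kinase subunit, differed otherwise, with 0.87, 0.36, -2.67 and -0.05, where P3 alone was low. Slc16a5, a carrier of monocarboxylates, was likewise 1.36, 1.09, -1.80 and 0.78. The pseudogene Bambi-ps1 went from 2.53 to -0.87. Acsbg3, Tex45 and Myo5b differed by -3.31, -3.15 and -3.13, each with a P3 level below -4. Among bounds, Wnt5b was at least 25.7-fold lower, Amigo2 at least 15.2-fold, Dmbt1 at least 11.1-fold, Boll at least 8.66-fold, Maml3 at least 7.55-fold and Pgpep1l at least 7.41-fold.

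**Figure D3:**
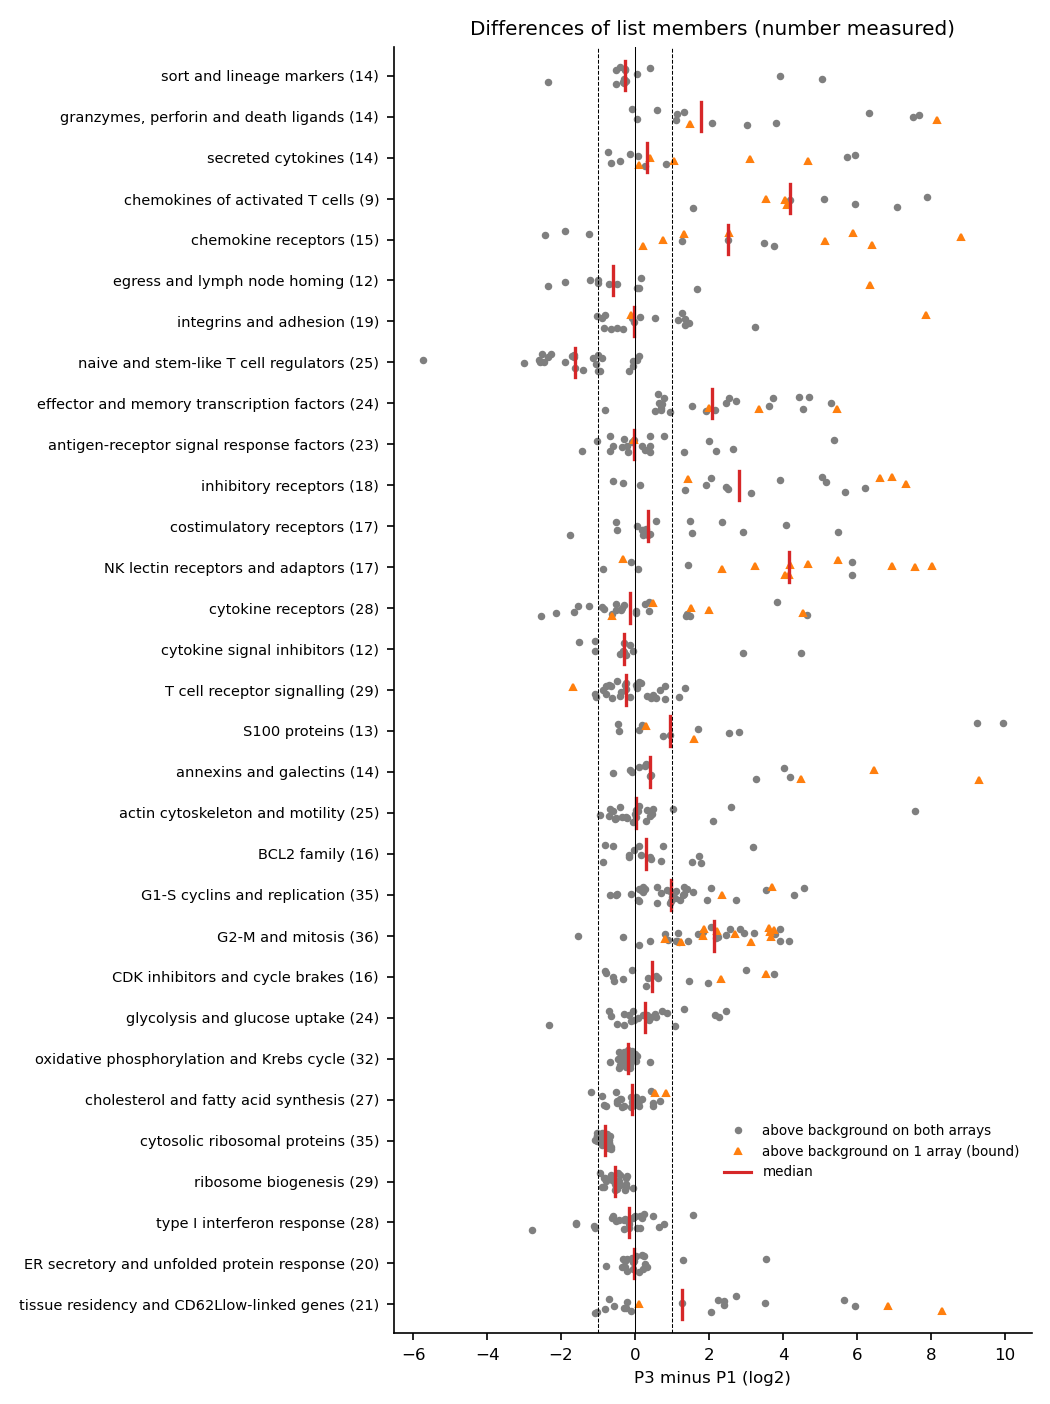
Differences (P3 minus P1, log2) of the measured members of 31 lists of T cell function, with the number measured in brackets. Grey circles are genes above background on both arrays, orange triangles are bounds, the red bar is the list's median and dashed lines mark 2-fold. The chemokine list lies wholly to the right of 1 with a median of 4.18, the naive regulators lie mostly to the left with a median of -1.62, and the oxidative phosphorylation genes lie within 2-fold.

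Cytotoxic genes were higher in P3 with no exception past 2-fold. Of 14 measured granzyme, perforin and death ligand genes, 11 were higher and 0 lower, with a median of 1.79. Gzmk was above background in P2, P3 and P4 but not in P1, and at least 288-fold higher in P3. Gzmm, granzyme M, stood at -0.91, 4.76, 2.90 and -0.70 on arrays P1 to P4, so its highest array was the CD44high CD62Lhigh subset. Fasl, the ligand of the death receptor Fas, was 6.32 higher, although a spot of it lay in a locally bright area. Prf1, the pore former perforin, differed by only 1.33, with 1.54 in P1 and 2.87 in P3. Serpinb9 and Serpinb6b, inhibitors that protect a killer cell from its own granzymes, were 2.08 and 3.03 higher. Lamp1, Ctsw and Srgn, genes of the granule itself, stayed within 2-fold at -0.07, 0.05 and 0.58.

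Secreted cytokines were selective. Of 14 measured, 5 were higher and 0 lower, with a median of 0.33. Ifng, which encodes interferon gamma, was 6.43 in P3 and 0.69 in P1, with 4.67 in P2 and 5.12 in P4, a difference of 5.74. Csf1, the growth factor of macrophages, was -4.36 in P1, below the background threshold in P2, 1.59 in P3 and 1.75 in P4. Il10 was at least 25.6-fold higher and Il21 at least 8.70-fold, both above background in P3 and not in P1. Csf2 was at least 2.06-fold higher. Tnf, at 0.83, and Lta, at -0.12, lay within 2-fold, as did Ltb at -0.73. Il4, Il13 and Lif were not well above background on P1 or P3.

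All 9 chemokines of activated T cells were at least 2-fold higher, with a median of 4.18. Ccl5 was 2.38 (P1), 7.53 (P2), 7.49 (P3) and 7.99 (P4), and Xcl1, which attracts type 1 dendritic cells, was -2.42, 2.76, 3.52 and 3.25. For both, P2, P3 and P4 lay together above P1. Ccl4 was 7.07 higher. Other chemokines were high on P3 and low on P4: Ccl1, Ccl6 and Ccl9 were at least 17.2-fold, 16.6-fold and 11.7-fold higher and Cxcl16 was 18.2-fold higher, with P4 levels from -6.14 to -3.26. Phagocytes also make Ccl6, Ccl9 and Cxcl16, and the part of phagocytes in these differences was not tested.

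**Figure D4:**
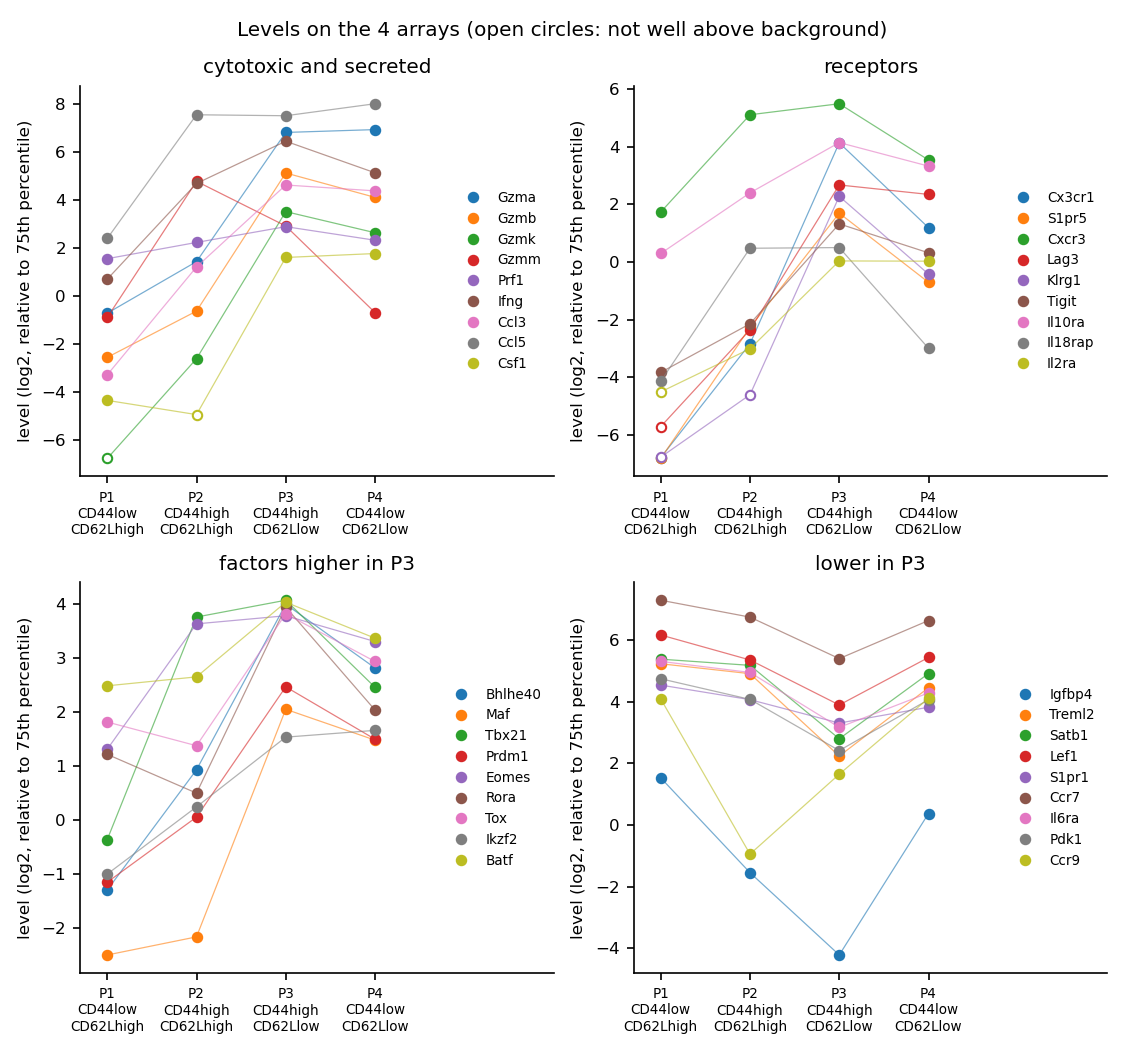
Levels of 36 genes on the 4 arrays, in 4 panels of 9 (log2, relative to the array's 75th percentile, 1 array per subset; open circles are not well above background, and lines only join points of a gene). Gzma, Gzmb and Ccl3 are high on both CD62Llow arrays, Gzmm peaks in P2 at 4.76, and Igfbp4 falls from 1.53 in P1 to -4.21 in P3.

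Receptors for migration differed in both directions. Of 15 chemokine receptors, 10 were higher and 3 lower; the median of 2.51 was 1.26 over those above background on both arrays. Cx3cr1, the fractalkine receptor of terminal effector cells and of mononuclear phagocytes, stood at 4.13 in P3, 1.19 in P4 and -2.84 in P2. Cxcr3, a receptor for interferon-induced chemokines, was 1.73, 5.11, 5.49 and 3.54 on arrays P1 to P4. Ccr6 was at least 59.0-fold higher, Ccr2 at least 34.8-fold and Cxcr5 11.2-fold. Cxcr6, a receptor of tissue-resident cells, differed by 1.26. Lower were Ccr9, the gut-homing receptor, from 4.09 to 1.65, Ccr7, the lymph node receptor, from 7.29 to 5.39, and Cxcr4, from 1.42 to 0.18. P4 kept Ccr9 at 4.11 and Ccr7 at 6.63.

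The genes of lymph node entry and egress counted 4 lower and 2 higher of 12, beside 7.13% and 12.5% of all measured genes. The list median was -0.60. S1pr1, the sphingosine receptor that lets T cells leave lymph nodes, was 4.54 in P1 and 3.30 in P3, and Klf2, a factor that drives S1pr1, was 6.80 and 5.79. S1pr5, the sphingosine receptor of effector and natural killer cells, was at least 82.1-fold higher, at 1.69 in P3 and -0.71 in P4. Ptger4, a prostaglandin E receptor, was 1.68 higher. Foxo1, 1.99-fold lower, and Cd69, at -0.71, did not reach 2-fold.

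Integrins divided by subunit. Of 19 integrin and adhesion genes, 7 were higher and 1 lower, beside 12.5% and 7.13% of all measured genes. The list median of -0.01 turned positive under 7 of 9 alternatives with a highest value of 0.14. Itgb1 was 5.06 in P3 and 1.82 in P1, with 3.94 in P2 and 2.49 in P4. Itgal and Itgb2, which together form LFA-1, were 1.47 and 1.36 higher, and Itga4, the partner of Itgb1 in VLA-4, was 1.35 higher. Itgax, at least 233-fold higher by its brightest probe, is also a dendritic cell marker, and its other probe gave a difference of only 0.30. Itgae, the alpha chain that binds epithelial cadherin, was 3.51 (P1), 0.09 (P2), 2.5 (P3) and 3.53 (P4), and so 1.02 lower in P3. Itga6, Icam2 and Itgb7 lay between -0.89 and -0.64.

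Genes linked to tissue residence or to low CD62L counted 11 higher and 2 lower of 21, beside 12.5% and 7.13% of all measured genes. The list median was 1.26. Like the other lists, this one was chosen with earlier results of these data known. Its count therefore describes these arrays and is no support of its own. Over genes above background on both arrays the median was 0.57. Adgrg1, an adhesion receptor of cytotoxic cells, was at least 115-fold higher, with 2.17 in P3, 2.24 in P4 and neither P1 nor P2 above background. Rgs16, a brake on chemokine receptor signalling, was -0.56, 1.04, 5.09 and 4.40. Litaf was -0.19, -0.25, 3.31 and 2.30. Ahr, the aryl hydrocarbon receptor, differed by 2.25 and Osgin1 by 2.73. Without genes that had a spot in a locally bright area, among them Rgs1 and P2rx7, the median was 0.10.

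Factors of naive and stem-like T cells were lower as a group. Of 25 measured, 17 were at least 2-fold lower and 0 higher, with a median of -1.62, and the median stayed between -1.63 and -1.42 under the 9 alternatives. Satb1, a chromatin organiser of T cells, was 5.38, 5.17, 2.80 and 4.91 on arrays P1 to P4. Lef1, a partner of beta-catenin, was 6.16, 5.35, 3.89 and 5.43. Treml2 was 5.23, 4.91, 2.24 and 4.45. In each the P3 array was the lowest and P4 stood nearer to P1. Als2cl, Dapl1 and Ramp1 were 2.60, 2.52 and 2.45 lower, and the probes of Ramp1 ran from -2.77 to -0.77. Bach2, a repressor that holds back effector genes, was 1.65 lower and Foxp1, a guardian of quiescence, 1.14 lower. Tcf7, which encodes TCF-1, was 4.31 in P1 and 3.36 in P3, a difference of -0.95 just within 2-fold. Il7r, the survival receptor of naive and memory cells, was -0.89. Id3, Ets1 and Ms4a4b lay between -0.17 and -0.04.

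Transcription factors of effector and memory cells were higher. Of 24 measured, 15 were higher and 0 lower, and the median was 2.08. Because 13 of the list are also on a cell type marker list, the remaining 11 are given too, of which 5 were higher, with a median of 0.96. Tbx21, which encodes the effector factor T-bet, was 4.06 in P3 and -0.37 in P1, with 3.75 in P2 and 2.45 in P4. Eomes, its memory-associated relative, was 1.31, 3.62, 3.77 and 3.30. Bhlhe40, a factor of tissue-resident and cytokine-producing cells, was -1.30, 0.93, 3.99 and 2.81. For Tbx21 and Eomes, P2 stood close to P3, whereas Bhlhe40 was higher in P3 than in P2. Maf, a driver of Il10, was 4.55 higher and Prdm1, which encodes Blimp-1, 3.61 higher. Batf3, at least 43.9-fold higher, and Irf8, 13.2-fold higher, are dendritic cell factors, and Irf8 had a spot in a locally bright area. Zeb2 was 4.72 higher by its brightest probe, while its probes disagreed in sign. Zeb1, which shares targets with Zeb2, was at -0.82.

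Inhibitory receptors were mostly higher in P3. Of 18 measured, 15 were higher and 0 lower, with a median of 2.82. Lag3 was at least 162-fold higher, at 2.67 in P3, 2.34 in P4 and -2.36 in P2. Havcr2, which encodes TIM-3 and is also made by dendritic cells, was at least 97.7-fold higher, at 1.94 in P3 and 1.24 in P4. Tigit was -3.83, -2.15, 1.32 and 0.31, and Entpd1, the ATP-degrading enzyme CD39, was -4.35, -2.90, 1.33 and 0.63. In all 4 the CD62Llow arrays were the highest pair. Klrg1, a marker of terminal effectors, was at least 123-fold higher and differed between the CD62Llow arrays, with 2.27 in P3 and -0.42 in P4. Ctla4 was 3.13 higher and Cd160 2.52 higher. Btla, Vsir and Nt5e stayed within 2-fold, at -0.32, -0.60 and 0.15.

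Costimulatory receptors differed at single members. Of 17 measured, 6 were higher and 1 lower, beside 12.5% and 7.13% of all measured genes, with a list median of 0.35. Slamf7 was 5.48 higher, Tnfsf14 4.09, and Tnfrsf9, which encodes 4-1BB, went from -0.18 to 2.73, with 3.63 in P4. Tnfrsf14, the receptor of Tnfsf14 and of Btla, was 1.76 lower, while its other probe gave -0.36. Cd28 at 0.23, Cd27 at 0.35 and Icos at 0.58 lay within 2-fold.

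Natural killer lectin receptors were mostly dim in P1, where 6 of 17 were above background. Of 17 measured genes 13 were higher and 0 lower, and the median of 4.17 rests largely on bounds: among genes above background on both arrays it was 0.76. Klrk1, which encodes the activating receptor NKG2D, was at least 188-fold higher, with 1.08 in P2, 2.89 in P3 and -1.29 in P4. Klra7 was -4.26, 4.79, 1.60 and -1.56, highest in P2, as were Klra5, Klra6 and Klra9. These Ly49 genes are near-identical copies that probes may not tell apart. Klrc1 was at least 9.46-fold higher, and Klrd1, its partner chain CD94, differed by 0.09. Tyrobp, a signalling adaptor of natural killer and myeloid cells, was at least 260-fold higher. Fcer1g, another such adaptor, was 58.5-fold higher and had a spot in a locally bright area. Hcst, the adaptor of NKG2D, was at -0.10.

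Cytokine receptors divided in both directions. Of 28 measured, 8 were higher and 5 lower, beside 12.5% and 7.13% of all measured genes. The list median of -0.13 was 0.12 after quantile normalization. Higher were Il18rap, from -4.14 to 0.50, Il2ra, at least 23.3-fold, Il10ra, from 0.29 to 4.14, and Il12rb1, by 1.5. Il2rb, the chain shared by the receptors for interleukins 2 and 15, was 4.48, 6.51, 5.88 and 5.58. Lower were Ifngr2, from 1.73 to -0.82, Il6ra, from 5.30 to 3.17, Tgfbr3 by 1.66, Il6st, the signalling chain beside Il6ra, by 1.53, and Il4ra by 1.25. Ifngr1, the other chain of the interferon gamma receptor, differed by 0.03. Il18rap was 0.47 in P2 and -3.0 in P4, so the CD44high arrays shared it.

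Feedback inhibitors of cytokine signalling counted 2 higher and 3 lower of 12, beside 12.5% and 7.13% of all measured genes. Cish, which is induced by STAT5, was -0.22, -0.23, 2.71 and 2.22, and Socs2 was -4.50, -3.12, 0.00 and -4.15. Socs1, Smad7 and Usp18 were 1.09, 1.51 and 1.09 lower, and Usp18 had a spot in a locally bright area. Socs3 differed by -0.32.

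Of 29 genes of T cell receptor signalling, 2 were higher and 3 lower, beside 12.5% and 7.13% of all measured genes, with a list median of -0.24 that was 0.10 after quantile normalization. Zap70 differed by 0.16, Lat by -0.14 and Themis by -0.24. Ubash3b, a phosphatase that damps the receptor, was 1.34 higher and Txk, a Tec-family kinase, 1.08 lower. Plcg1 and Fyn, at -1.04 and 1.19, each had a spot in a locally bright area, and Pag1, at least 3.21-fold lower, was not above background in P3.

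Factors induced by antigen receptor signals counted 5 higher and 2 lower of 23, beside 12.5% and 7.13% of all measured genes. Their share lower is near that of all genes. The list median of -0.02 was 0.29 after quantile normalization. The immediate early genes Egr1, Egr2, Nr4a1 and Nr4a3 lay between -0.19 and 0.26, Egr2 with a spot in a locally bright area. Nr4a2 was 2.92, 3.98, 5.12 and 4.73, and Tox, a factor linked to chronic stimulation, was 1.81, 1.37, 3.81 and 2.93. Spry2 and Spry1, inhibitors of the ERK pathway, were 5.37 and 2.66 higher, but the other probe of Spry2 gave only 0.44. Myc, which drives growth, was 3.54 in P1 and 2.11 in P3, and Jun was 1.03 lower.

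The S100 list holds small calcium-binding proteins and also S100pbp, which is not one of them. It had 6 of 13 members higher and 0 lower, with a median of 0.94. Besides S100a4 and S100a6, the member S100a11 was 1.70 higher, at 2.39, 2.30, 4.08 and 2.82. S100a8 and S100a9, abundant in neutrophils and monocytes, were 2.54 and 2.80 higher, from levels of -4.64 and -3.02. S100a10, the partner of annexin A2, was at 0.94, within 2-fold.

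The list of annexins and galectins, which bind membranes and glycans, also holds Lgals3bp, which is not a galectin. Of its 14 genes, 6 were higher and 0 lower. Anxa2 was 1.38, 4.26, 5.58 and 3.68, and Lgals1 was 2.82, 4.42, 6.09 and 3.47, so in both genes P1 was the lowest array. Anxa3 and Anxa1, at least 87.6-fold and 22.6-fold higher, were above background in P3 and not in P4. Anxa5, Anxa6 and Anxa7 stayed within 2-fold, between 0.28 and 0.42.

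Of 25 measured cytoskeletal genes, 4 were higher and 0 lower, a share higher that is near the 12.5% of all measured genes: Plek, Myo1f by 2.60, Capg by 2.10 and Lmna by 1.02, the last with a spot in a locally bright area. Actb differed by -0.68, Tmsb10 by -0.94 and Vim by 0.45. The list median was 0.02, and 0.44 after quantile normalization. In the BCL2 family 4 of 16 were higher and 0 lower, beside 12.5% and 7.13% of all measured genes. Bcl2a1d, a survival gene with near-identical copies, was 2.04, 2.98, 5.22 and 4.36. Bcl2l1, which encodes BCL-XL, was 1.77 higher with probes that disagreed in sign. Pmaip1 and Bik, both pro-apoptotic, were 1.73 and 1.55 higher. Bcl2 itself went from 3.98 to 3.18, and Mcl1 differed by -0.04.

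Genes of cell division were raised in P3, most of all those of mitosis. Of 36 measured G2-M genes 29 were higher and 1 lower, with a median of 2.13, and of 35 G1-S genes 17 were higher and 0 lower, with a median of 0.98. The G2-M median was 1.19 after normexp background correction, and 25 of the 36 were above background in P1. Mki67, the proliferation antigen Ki-67, was -1.54 (P1), 0.26 (P2), 2.63 (P3) and 0.26 (P4). Ccnb2, a mitotic cyclin, was -1.86, 0.07, 2.06 and -1.26, and Ube2c, which loads ubiquitin for the anaphase complex, was -3.61, -1.77, 0.32 and -2.82. Each of the 3 was highest in P3. Ccna2 was 3.79 higher, and Espl1, the separase that cuts cohesin, at least 13.5-fold higher. Kif23, the single lower gene at -1.54, had probes that disagreed in sign. Top2a and Kif20a, 2.47 and 1.84 higher, and Bub1, at least 4.66-fold higher, had a spot in a locally bright area. The lists do not name a cell type, and whether dividing cells were T cells or other cells was not tested.

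Mitotic genes are known to share promoter elements called the cell cycle genes homology region (CHR) and the CCAAT box, at which the repressive DREAM complex, MuvB and the factor NF-Y act. The promoters of 4 of the most raised G2-M genes are shown, from 250 bases before to 50 bases after the start, as RefSeq gives them for build GRCm38.p6. Capitals mark TTTGAA or TTCGAA, the letters searched for the CHR, and CCAAT, each on either strand. The windows are chr7:135716330-135716629 on the minus strand for Mki67, chr2:164769679-164769978 on the plus strand for Ube2c, chr9:70421505-70421804 on the minus strand for Ccnb2 and chr15:102296043-102296342 on the plus strand for Espl1.
Mki67: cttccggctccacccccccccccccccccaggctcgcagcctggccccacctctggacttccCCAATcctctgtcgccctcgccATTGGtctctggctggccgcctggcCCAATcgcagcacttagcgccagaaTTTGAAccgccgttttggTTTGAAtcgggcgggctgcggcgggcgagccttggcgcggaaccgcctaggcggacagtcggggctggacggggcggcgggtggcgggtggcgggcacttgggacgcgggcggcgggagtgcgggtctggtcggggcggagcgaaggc
Ube2c: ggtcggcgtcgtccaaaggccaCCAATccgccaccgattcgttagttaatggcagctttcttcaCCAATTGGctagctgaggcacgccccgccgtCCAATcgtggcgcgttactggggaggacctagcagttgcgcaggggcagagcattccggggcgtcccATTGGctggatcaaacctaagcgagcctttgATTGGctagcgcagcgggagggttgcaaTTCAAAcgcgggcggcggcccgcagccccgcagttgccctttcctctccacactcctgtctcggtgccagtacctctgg
Ccnb2: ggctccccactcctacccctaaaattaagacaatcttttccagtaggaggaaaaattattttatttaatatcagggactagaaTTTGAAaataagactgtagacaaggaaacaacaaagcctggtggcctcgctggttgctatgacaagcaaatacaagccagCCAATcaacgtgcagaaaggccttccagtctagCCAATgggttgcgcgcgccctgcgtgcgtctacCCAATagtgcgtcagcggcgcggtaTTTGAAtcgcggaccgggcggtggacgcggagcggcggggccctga
Espl1: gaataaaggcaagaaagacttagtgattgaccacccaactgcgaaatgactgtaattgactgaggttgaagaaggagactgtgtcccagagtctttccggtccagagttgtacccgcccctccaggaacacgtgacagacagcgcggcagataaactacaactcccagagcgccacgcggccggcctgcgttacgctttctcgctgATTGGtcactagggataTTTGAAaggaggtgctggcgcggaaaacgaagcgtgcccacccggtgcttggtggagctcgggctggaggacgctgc
In these windows the CHR letters occur 2 times for Mki67, 1 time for Ube2c, 2 times for Ccnb2 and 1 time for Espl1, and CCAAT occurs 3, 6, 3 and 1 times. Of the 36 G2-M genes, 30 had a promoter in the table, and the CHR letters were in 25 of them, or 83.3%, against 19.4% of 27025 promoters of all genes, 17.9% of 28 G1-S promoters and 12% of 25 ribosomal protein promoters. CCAAT was in 83.3% of the G2-M promoters, 37.9% of all, 57.1% of G1-S and 40.0% of ribosomal protein promoters. The letters GGCGGGAA or TTTGGCGC, searched for E2F sites, were in 32.1% of the G1-S promoters, 2.75% of all, 8.0% of the ribosomal protein promoters (2 of 25) and 0 of the 30 G2-M promoters. A match describes these letters only and shows no binding, and a missing match says only that these letters are not in the window.

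Among G1-S genes, a cyclin and a thymidine kinase had the largest differences. Ccnd1, which encodes cyclin D1, was -3.43, -2.55, 1.12 and -2.87, and Tk1, a thymidine kinase, was -2.89, -0.93, 1.40 and -0.59. Rrm2, the regulated subunit of ribonucleotide reductase, was 2.74 higher, Mcm10 3.55 higher and E2f8 at least 12.9-fold higher. The helicase genes Mcm2 to Mcm7 lay between 0.10 and 1.09, and Pcna at 0.17. Ccnd2 and Ccnd3, cyclins of resting and activated T cells, were at -0.67 and 0.11. Of the inhibitors of division, 6 of 16 were higher and 0 lower. Cdkn2b and Cdkn2a were at least 11.7-fold and 5.02-fold higher, with P4 above background for both. Cdkn1a, which encodes p21, was 3.00 higher, and Cdkn2c, which encodes p18, 1.97 higher. Cdkn1b, which encodes the p27 of quiescent T cells, differed by -0.33 and Btg1 by -0.79.

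**Figure D5:**
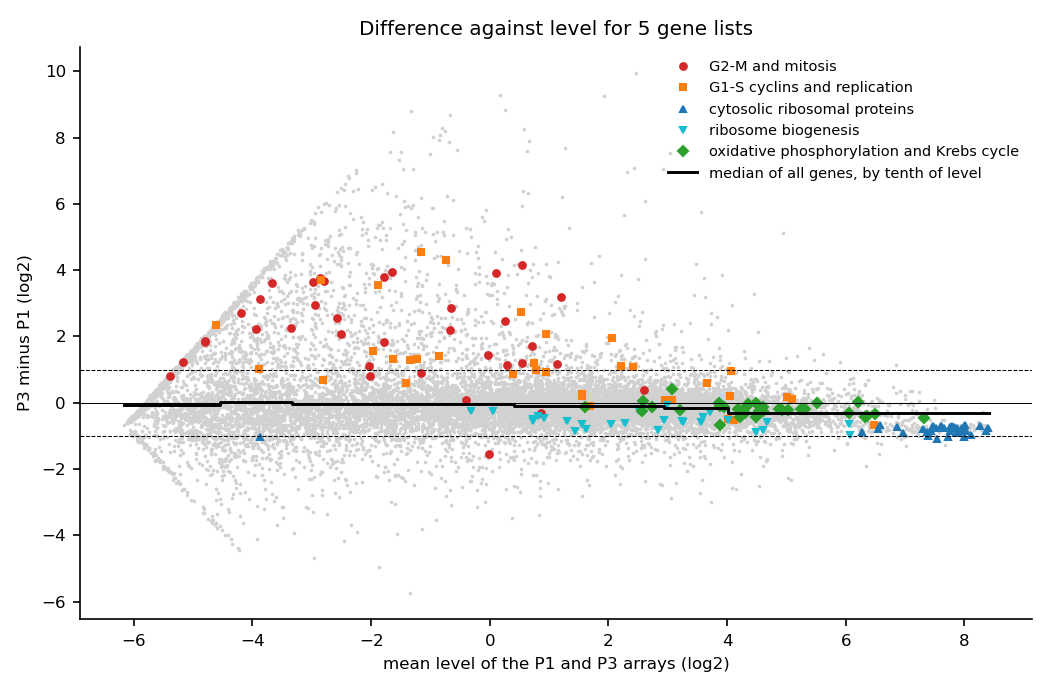
Difference (P3 minus P1, log2) against the mean level of both arrays (log2) for all measured genes in grey and 5 lists in colour. The black line is the median of all genes in 10 bins of level, and falls to -0.31 in the highest bin. Of 36 mitotic genes 29 lie above 1, while the ribosomal protein genes, all but Rpl37, lie together at the bright end, with a median of -0.80 that was -0.01 after quantile normalization.

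Metabolic genes differed at single steps. Of 24 glycolysis genes 5 were higher and 1 lower, beside 12.5% and 7.13% of all measured genes, with a list median of 0.27. Pdk1, a kinase that keeps pyruvate out of mitochondria, was 4.74, 4.07, 2.41 and 4.06 on arrays P1 to P4. Slc16a3, a lactate exporter, was 2.47 higher, and the hexokinase genes Hk2 and Hk3 were 2.27 and 2.17 higher, the latter with -1.99 in P4 against 0.59 in P3. Pfkfb3, which raises glycolytic flux, was 1.34 higher. Ldha differed by -0.31, Gapdh by 0.72 and Slc2a1, the main glucose transporter, by -0.05. No gene of 32 for oxidative phosphorylation and the Krebs cycle reached 2-fold in either direction, and their differences ran from -0.68 to 0.41, with a median of -0.18 that was 0.07 after quantile normalization. In sterol and fatty acid synthesis 1 of 27 was lower, Srebf2 at -1.20, and 0 were higher.

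Ribosomal protein genes were uniformly lower under the 75th percentile scaling, and level after quantile normalization. All 35 were below 0, from -1.09 to -0.66, with a median of -0.80, and 5 passed 2-fold. The median was -0.01 after quantile normalization, -0.07 in the authors' processed values and -0.07 without any scaling, so the size of the median depends on how the arrays are set against each other. The 10% of genes with the highest levels had a median of -0.31, with 18 higher and 69 lower. Of 29 ribosome biogenesis genes 0 passed 2-fold in either direction, and their median was -0.55. Their median was -0.44 after quantile normalization and -0.41 in the authors' processed values, but 0.18 without scaling. Fbl, the methyltransferase fibrillarin, was 6.56, 6.59, 5.60 and 6.63, and Srm, spermidine synthase, was 2.59, 2.82, 1.97 and 3.50. In both genes P3 was the lowest array.

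Interferon-response genes differed at single members. Of 28 measured, 5 were lower and 1 higher, beside 7.13% and 12.5% of all measured genes. The list median of -0.15 was 0.01 in the authors' processed values. Oas2, an RNA sensor, was 0.15 in P3 and 2.95 in P1, with 1.74 in P2 and 2.15 in P4. Oasl1 and Oasl2 were 1.61 and 1.60 lower. Isg15, Ifit1, Ifit3 and Irf7 lay between -0.30 and -0.04, and Cxcl10 was 1.57 higher. In the list of the secretory pathway and unfolded protein response, 2 of 20 were higher, a share near the 12.5% of all measured genes. These were Atf3 by 3.53 and Sdf2l1 by 1.30, and the list median of -0.03 was 0.22 after quantile normalization.

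Probes that no RefSeq accession names behaved differently from named genes as a set. Of 11180 measured, 613 were higher, or 5.48%, and 1501 lower, or 13.4%, with a median of -0.37. By class, the medians were -0.39 for 4151 Ensembl transcript probes, -0.39 for 2013 probes of genomic intervals, -0.32 for 994 probes of RefSeq accessions that the gene table used here lacks and -0.37 for 4022 other probes. Named long noncoding RNA genes resembled them, with 67 higher and 125 lower of 705 and a median of -0.38, against 1678 higher and 851 lower of 13218 protein-coding genes and a median of -0.10.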

How the data were processed

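Spleen and lymph node CD8 subsets were measured on 4 single-colour Agilent arrays of 62976 spots, 1 per subset; RNA was reverse transcribed with random primers and labelled as Cy3 cRNA, per the labels' protocols. The deposited scanner files give the processed signal, an intensity that Agilent Feature Extraction 11.0.1.1 made, per the submitters' processing notes. The authors' deposited value table (log2, 26188 probes) states no normalization, and its 4 columns share a median of 8.85 and near-identical sorted values, as quantile normalization gives.

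Outlier-flagged spots (122 on P1 and 139 on P3) and control spots were dropped, log2 signals were scaled to each array's 75th percentile, and spots of a probe were averaged. 0 spots were saturated. P1 had 28033 probes well above background and P3 30811. Of 56605 probes, 32994 were named through RefSeq accessions, 23611 were not, and a gene took its brightest probe over the 4 arrays. Of 752 called genes with several measured probes, 77 had probes that differ in sign. Probes of the same sign could still differ in size, as for Spry2, Itgax and Mpeg1. Bright areas are places on an array where neighbouring spots were raised together; they touched 81 higher and 143 lower calls. Calls were made at 2-fold, without a test.

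Members and lists were chosen with earlier results of these data known. The text names the 12 largest differences and 6 largest bounds per direction (leaving out disagreeing probes, clone names and bright-area spots), all sort and lineage genes, and up to 6 members per list and direction, 4 for cell type lists, plus members within 2-fold for contrast. Other genes named were chosen after their values were seen. Some genes these rules select are not reported here. Python 3.11.15, pandas 2.3.3, numpy 2.4.6, R 4.3.3 and limma 3.58.1 (normexp) were used, and the pipeline was tested on simulated data. Alternatives tried were quantile normalization, scaling to the median, other background filters, mean over probes, outlier spots kept, the authors' values, normexp, 4-fold and leaving out bright areas. Lists without cell type markers, and marker sums without their brightest gene, were added after seeing the data.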

Additional observations from a re-analysis of the deposited data

How the results depend on the processing

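The counts depend on the filter, the background correction and the threshold more than on the scaling. Quantile normalization, median scaling (over probes above background everywhere), the mean over probes, keeping outlier spots and leaving out bright areas kept every count within 1.5 times. With genes above background on both arrays, 962 were higher and, among unnamed probes, 282 were higher. With no filter and no floor, 1974 genes were lower, 1291 unnamed probes were higher and 3080 lower, and the median of all genes was -0.37. The authors' processed values gave 1045 higher and 499 lower genes, 317 and 571 unnamed probes and a median of -0.00103, over 11842 genes, a shift of over 0.1 from the -0.11 over 14101. Normexp, run on median signals because the files used here hold no mean signals, gave 1165 higher, 611 lower, 266 and 610. At 4-fold the numbers were 943, 206, 250 and 174 by construction. Siglech reversed to 0.96 with the mean over its probes. Of 222 named genes past 2-fold, all 222 kept their direction and 209 stayed past 2-fold after quantile normalization, and with normexp 197 stayed past it. Of 157 in the authors' values, 142 stayed past it. Of 46 list medians, 38 kept their sign after quantile normalization and 43 after median scaling. No paired analysis was possible because each subset has 1 array, and no array can be left out. With 1 array a side, dim genes rest on bounds, and no difference has a check against mice or sorts.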
